A study of Mus musculus with 18 samples.

Results

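Ubiquitin-conjugating enzymes (E2s) were examined as a gene family in liver RNA of *Rps2*-A226Y mice and wild-type mice. Members were all genes whose mouse symbol starts with Ube2 followed by a letter, pseudogenes with a -ps symbol left out. This gave 38 of the 22524 genes listed, of which 33 had enough reads to be tested. The letters also took in *Ube2cbp*, which is a ligase that binds Ube2c and not an E2, and *Ube2d4*, which the annotation of mouse genome build GRCm38 calls a processed pseudogene.

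The mutant group (A226Y, n = 10) was heterozygous for a knock-in that changes an alanine of the small-subunit ribosomal protein Rps2 to tyrosine, a change used to lower the accuracy of translation. The controls (WT, n = 8) had wild-type *Rps2* and expressed Cre recombinase. The mutant line came from a cross with CMV-Cre mice, which express the recombinase in all tissues. Whether the sampled mutants still carried that transgene is not stated. All mice were females aged 15 months, with 1 liver library per mouse. The knock-in was made in stem cells of another strain, and the line was backcrossed to C57BL/6. Whether DNA of that strain remained near *Rps2* in the mutants was not tested. Excision of the stop cassette is partial in this model, so the A226Y livers were mosaics that also held cells with 1 silent *Rps2* allele, and the effects of the mutation and of that silent allele cannot be told apart here.

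Ubiquitin is passed along a chain of 3 kinds of enzyme. An activating enzyme (E1) loads it onto the catalytic cysteine of an E2, and a ligase (E3) brings the E2 to a substrate. The E2 often sets which chain is built: chains through lysine 48 (K48) send proteins to the proteasome, chains through lysine 63 (K63) serve signalling and DNA repair, and a few E2s carry ubiquitin-like proteins such as NEDD8 or ISG15. In hepatocytes, which secrete large amounts of protein, E2s of the endoplasmic reticulum act in the degradation of misfolded secretory proteins (ERAD).

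Total counts per library were 23850565 to 62126131 in A226Y (median 32058379) and 25869192 to 34918732 in WT (median 31702989). The libraries of A226Y animal 29 and WT animal 33 stood apart, with median Spearman correlations to the others of 0.9719 and 0.9768, against 0.981 to 0.9915 for the other 16. Members whose calls change without both are named where they occur. *Rps2* itself was lower in all 10 A226Y mice than in any WT mouse (log2 fold change −0.73, SE 0.11, adjusted p = 0.000772, edgeR quasi-likelihood test). Hepatocyte markers fit the labelled tissue, with summed levels of 72300 to 150000 CPM (counts scaled to library size) in A226Y and 94700 to 177000 CPM in WT.

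The family as a whole was close to level between the genotypes. In edgeR's quasi-likelihood test, with Benjamini-Hochberg adjustment over all 13353 tested genes and a threshold of 0.05, 4 of the 33 tested members (12.1%) were called. *Ube2l6* and *Ube2a* were lower in A226Y, and *Ube2j1* and *Ube2k* were higher. Among all tested genes 14.3% were called, 7.27% higher and 7.03% lower, so the members' share was near the background. At an unadjusted p under 0.05 there were 7 members (21.2%), against 29.6% of all tested genes. The median log2 fold change (A226Y against WT) was 0.046 for the members and −0.004 for all tested genes, and 22 members had a positive and 11 a negative value (66.7% positive, against 49.0% of all tested genes). The median absolute change was 0.093 for the members and 0.139 for all tested genes. Above a mean level of 10 CPM it was 0.087 over 26 members and 0.12 over 7827 genes. Scaling by library size alone raised the share of called genes that were higher from 50.8% to 67.9%, and then *Ube2d3*, *Ube2j1* and *Ube2k* were called higher and *Ube2l6* lower. In no member did the values of the 2 genotypes separate without overlap, which they did in 0.637% of all tested genes.

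**Figure D1:**
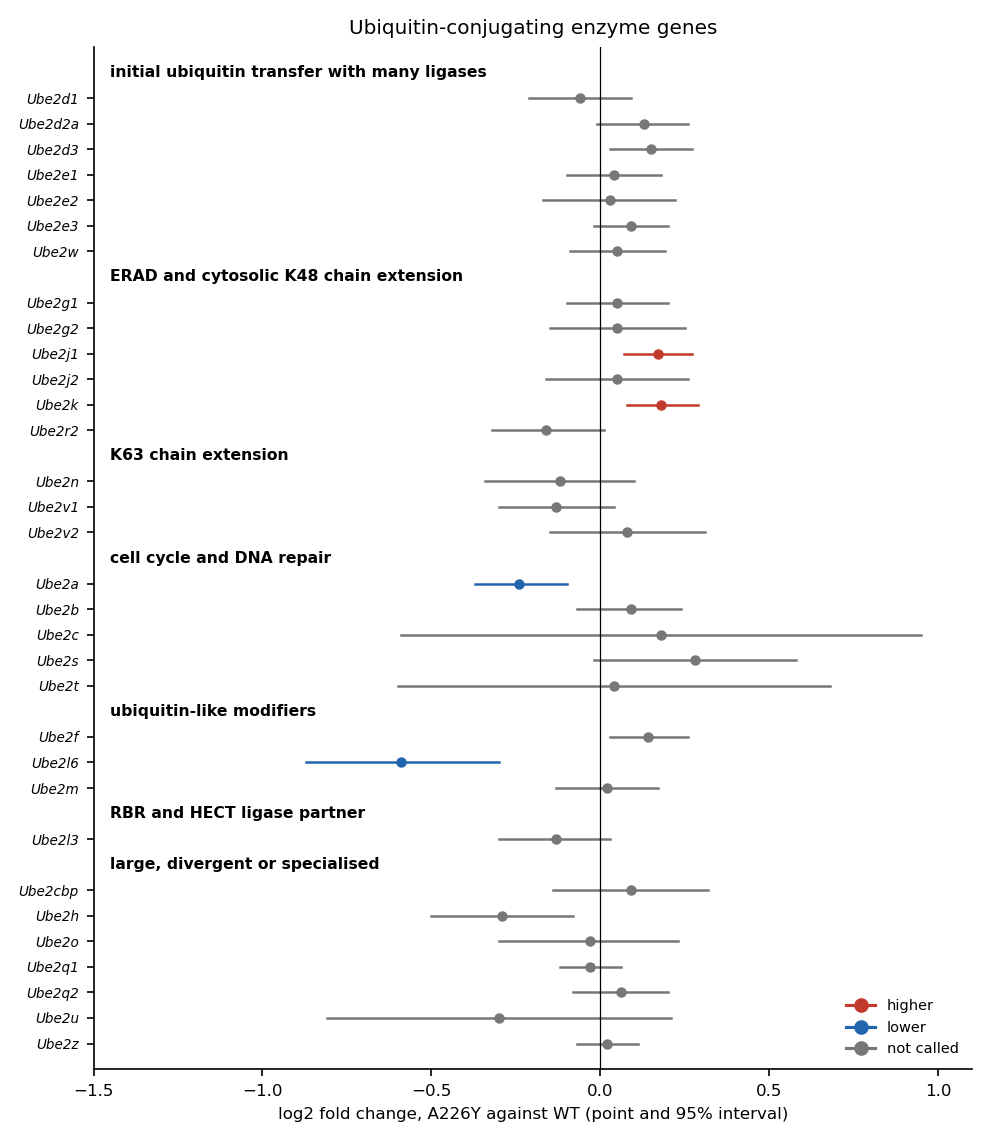
Log2 fold change of the tested members reported singly (A226Y against WT, points) with its 95% interval (lines), grouped by role; red marks the 2 members called higher, blue the 2 called lower, and grey those not called. Most points lie within 0.2 of zero, and *Ube2l6* lies farthest below it at −0.59.

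**Figure D2:**
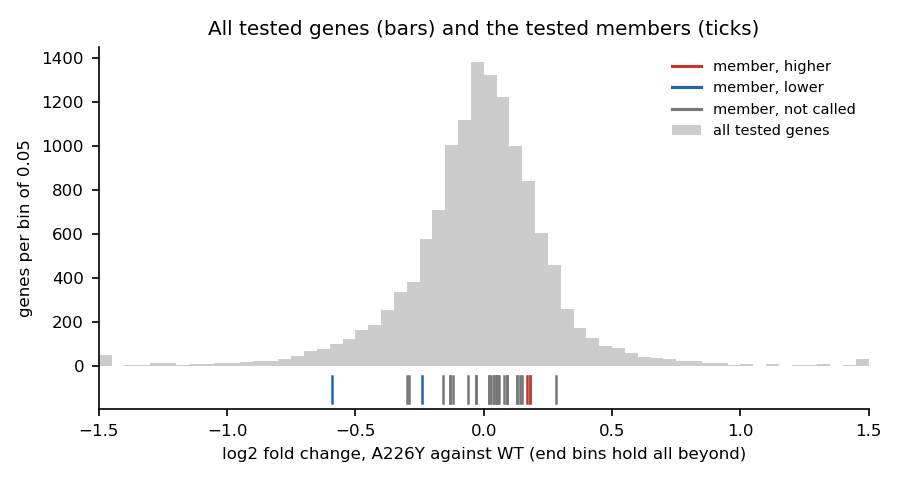
Distribution of log2 fold changes (A226Y against WT) over all 13353 tested genes (grey bars, genes per bin of 0.05 log2 units, the end bins holding everything beyond) with the 33 tested members as ticks under the axis, red for higher, blue for lower and grey for not called. The members' ticks lie mostly in the central peak, and the called members *Ube2j1* and *Ube2k* lie at 0.17 and 0.18.

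Compared per length of transcript, liver held a few abundant E2s and a long tail of rare ones. *Ube2b*, one of the paired Rad6 homologs that modify histone H2B and PCNA, was highest at a mean of 59.1 CPM per kilobase over all 18 mice. It was followed by *Ube2d3*, a broad-use E2 that starts chains for many ligases, at 48.3 CPM per kilobase. *Ube2m*, which loads NEDD8 onto cullins, came next at 43.2 CPM per kilobase, and *Ube2r2*, a builder of K48 chains with cullin ligases, at 41.0 CPM per kilobase. *Ube2l6*, the ISG15 carrier, was at 25.5 CPM per kilobase, and these 5 genes held 45.7% of the family's summed level per length. Next among members not called were *Ube2e2* and *Ube2e1*, relatives of the Ube2d enzymes, at a mean of 23.4 and a median of 20.1 CPM per kilobase.

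Of the 38 members, 17 were at 10 CPM per kilobase or more and 8 were under 1. Neighbours in this order overlapped in their ranges over mice in 34 of 37 cases, so single ranks are not firm. Apart from *Ube2f* and *Ube2n*, the cases not counted as overlapping involved *Ube2dnl1* or *Ube2dnl2*, which were at 0 in every mouse. *Ube2b* exceeded *Ube2d3* in 18 of 18 mice and *Ube2d3* exceeded *Ube2m* in 15, but *Ube2m* exceeded *Ube2r2* in only 9. The clearest step was from *Ube2f* to *Ube2n*, at 5.04 and 2.74 CPM per kilobase, where the ranges did not overlap. *Ube2n* is the catalytic partner in K63 chain building, and 10.74% of its 50-base words, the length of the reads, also occur in other genes. That share was 11.25% for *Ube2l6*, mainly from an antisense gene, and 14.93% for *Ube2d3*, and the levels of all 3 are uncertain to that extent. The family's summed level was 1176, 1275 and 1320 CPM (lowest, median, highest) in A226Y and 1190, 1265 and 1373 CPM in WT. The totals of the genotypes overlapped almost completely.

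*Ube2l6* had the largest change of the called members. It encodes the E2 for ISG15, a ubiquitin-like protein induced by interferon, and also carries ubiquitin. The gene (ENSMUSG00000027078) lies at chr2:84798828-84810335 on the plus strand of GRCm38. Its level was 23.6, 32.1 and 41.3 CPM (lowest, median, highest) in A226Y and 36.6, 44.3 and 75.3 CPM in WT. The A226Y mice lay in a narrow low band, with 8 of 10 below every WT mouse and all 10 below the WT mean, while the WT mice spread upward. The means were 32.5 ± 5.86 CPM (SD, n = 10) and 48.8 ± 13.6 CPM (SD, n = 8). The log2 fold change was −0.59 (SE 0.14, 95% interval −0.87 to −0.30, adjusted p = 0.00925), a change of −33.4%. A two-sided exact permutation test on log2 CPM, which ran through every one of the 43758 ways to divide the mice, gave p = 0.00096. The call was lost with 4 surrogate variables as covariates (log2 fold change −0.16, adjusted p = 0.614). That fit called only 50 of all 13353 tested genes, so most calls were lost in it. Without A226Y animal 29 and WT animal 33 it was −0.51 (adjusted p = 0.0209).

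Other genes of ISG15 conjugation were set beside it. *Uba7*, the E1 that activates ISG15, was 4.95, 5.66 and 12.7 CPM in A226Y and 6.45, 10.5 and 17.9 CPM in WT. It was below every WT mouse in 7 of 10 A226Y mice, and the highest A226Y value belonged to animal 29. Its log2 fold change was −0.84 (SE 0.2, adjusted p = 0.00885), and the call was lost with surrogate variables (−0.38, adjusted p = 0.102). *Isg15* itself was 2.53, 4.15 and 6.64 CPM in A226Y and 3.06, 6.19 and 12.1 CPM in WT, with a log2 fold change of −0.65 that missed the threshold (SE 0.23, adjusted p = 0.0659). The mouse ISG15 ligase *Herc6* had −0.43 (adjusted p = 0.0997), the deconjugating protease *Usp18* −0.18 (adjusted p = 0.598) and the ligase *Trim25* −0.07 (adjusted p = 0.523). The E1 and the E2 of this chain were called lower, both calls being lost with surrogate variables, and the modifier, ligases and protease were not called.

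**Figure D3:**
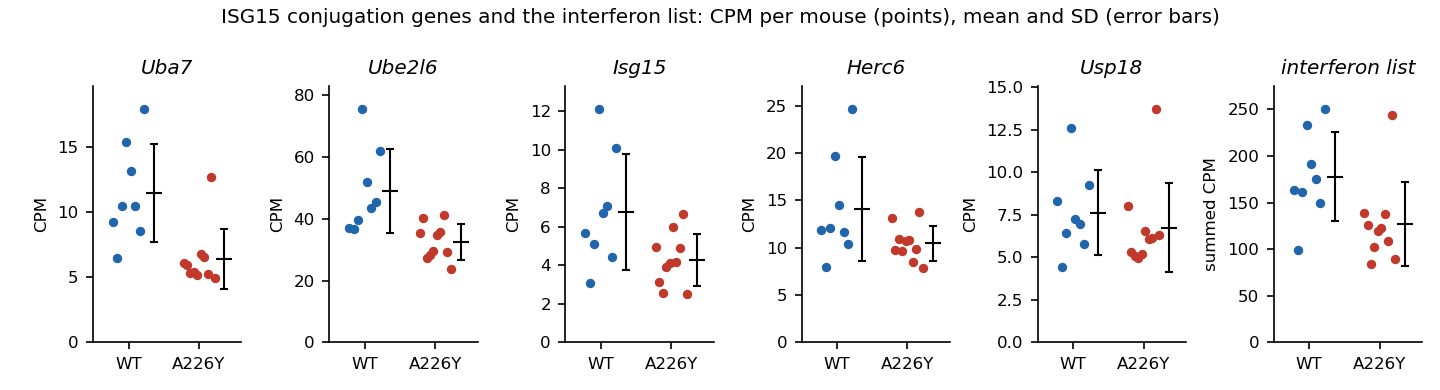
CPM per mouse (points, blue WT and red A226Y, spread sideways only to separate them) with mean and SD (black error bars) for *Uba7*, *Ube2l6*, *Isg15*, *Herc6* and *Usp18*, and the summed CPM of the 10-gene interferon list. A226Y points lie low in the *Uba7* and *Ube2l6* panels, with A226Y animal 29 alone at 12.7 CPM in *Uba7* and at 244 CPM in the interferon list.

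Most interferon genes and macrophage markers had fold changes of the same sign as *Ube2l6*, and the number called depended on the libraries used. All 10 genes of an interferon list had negative log2 fold changes (median −0.57), of which 1 was called (14.3% of all tested genes were called). The list's summed level was 84.3, 121 and 244 CPM in A226Y and 99.3, 169 and 250 CPM in WT. In WT the mouse with the lowest sum, animal 6, had 36.6 CPM of *Ube2l6*, and the mice with the highest sums, animals 14 (233 CPM) and 33 (250 CPM), had 75.3 and 61.7 CPM. In A226Y the lowest sums, 84.3 and 89.7 CPM in animals 7 and 32, went with 27.2 and 23.6 CPM of *Ube2l6*, and the highest, 244 CPM in animal 29, with 29.1 CPM. The A226Y mice with the most *Ube2l6*, animals 23 (41.3 CPM) and 5 (40.3 CPM), had sums of 109 and 126 CPM, near the median of 121 CPM. Kupffer cell and macrophage markers had a median of −0.43, with 7 of 8 negative, 1 called lower (*Clec4f*, −0.65, adjusted p = 0.0261, and 0.0577 without WT animal 14) and *Marco* at 0.83 (adjusted p = 0.294). Their summed level was 278, 377 and 1080 CPM in A226Y, with animal 29 again highest and the next at 708 CPM, and 416, 604 and 841 CPM in WT. Without A226Y animal 29 and WT animal 33, 5 of the 10 interferon genes and 5 of the 8 macrophage markers were called lower (medians −0.58 and −0.50), where 2363 of 13269 genes were called in all. With surrogate variables, where 50 of 13353 genes were called in all, none of either list was called and the medians were 0.06 and −0.05. Markers of T and NK cells (7 of 7 negative, median −0.46), B and plasma cells (6 of 6, −0.31) and erythroid cells (6 of 6 tested, −0.46) also had negative values, with none called. Without A226Y animal 29 and WT animal 33 these medians were −0.54, −0.04 and −0.30, and with surrogate variables 0.07, 0.33 and −0.47. The B and plasma cell sums had medians of 14.3 CPM in A226Y and 13.1 CPM in WT, with WT animal 33 at 95.5 CPM. The part of these lists in the *Ube2l6* difference was not tested, and in whole liver fewer cells of a type and less RNA per cell cannot be told apart. Of the stellate cell and fibroblast genes 3 of 7 were called lower (7.03% of all tested genes), while their summed level had a median of 349 CPM in A226Y and 317 CPM in WT. Of the hepatocyte genes 1 was called in each direction, and none was called for sinusoidal endothelium (median 0.02), cholangiocytes (0.21) or dividing cells (−0.13). No gene of these lists was at 0 in all mice.

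The other E2s of ubiquitin-like proteins were not called. *Ube2f*, which loads NEDD8 onto Cul5 ligases, averaged 29.7 ± 2.26 CPM in the mutants (SD, n = 10) and 26.9 ± 2.04 CPM in the controls (SD, n = 8), with a log2 fold change of 0.14 (SE 0.055, adjusted p = 0.0841). *Ube2m* was nearly level at 55.0, 62.8 and 72.4 CPM in A226Y and 53.1, 61.4 and 76.0 CPM in WT (0.02, 95% interval −0.13 to 0.17, adjusted p = 0.89). In the NEDD8 chain, *Uba3*, the catalytic subunit of its E1, rose (0.24, SE 0.054, adjusted p = 0.00806), with 6 of 10 A226Y mice above every WT mouse. The *Uba3* call was lost with the GC content offset (0.13, adjusted p = 0.0721) and with surrogate variables (0.14, adjusted p = 0.329). Its partner subunit *Nae1* (0.15, adjusted p = 0.202) and *Nedd8* (−0.04, adjusted p = 0.685) were not called.

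Of the 6 E2s of ERAD and cytosolic K48 chain building 2 were called higher, as were 7.27% of all tested genes, and both calls were lost with a GC content offset, a smooth correction fitted within each library. *Ube2j1*, a membrane-anchored E2 of the endoplasmic reticulum, lies at chr4:33031416-33052363 on the plus strand (ENSMUSG00000028277). Its level was 40.8, 43.2 and 48 CPM in A226Y and 34.6, 39.1 and 42.1 CPM in WT. The bands were tight, and 8 of 10 A226Y mice were above every WT mouse and all 10 above the WT mean. Means were 43.8 ± 2.22 CPM (SD, n = 10) and 38.9 ± 2.53 CPM (SD, n = 8). The log2 fold change was 0.17 (SE 0.046, 95% interval 0.07 to 0.27, adjusted p = 0.0191), a rise of 12.5%, with an exact permutation p of 0.000183. The call was lost with the GC content offset (0.12, adjusted p = 0.0854) and with surrogate variables (0.10, adjusted p = 0.426). Without both libraries that stood apart it was 0.16 (adjusted p = 0.0273).

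*Ube2k*, a cytosolic E2 that builds K48 chains without needing a ligase, lies at chr5:65537233-65598988 on the plus strand (ENSMUSG00000029203). Its level was 55.6, 59.7 and 64.8 CPM in A226Y and 47.3, 51.2 and 59.1 CPM in WT. Each of the 10 A226Y mice exceeded the WT mean, and 6 exceeded every WT mouse. Means were 59.6 ± 2.62 CPM (SD, n = 10) and 52.5 ± 4.61 CPM (SD, n = 8). The log2 fold change was 0.18 (SE 0.051, 95% interval 0.08 to 0.29, adjusted p = 0.0227), a rise of 13.6%, with an exact permutation p of 0.000823. The call was lost without WT animal 21 (adjusted p = 0.0514), with the transcript length offset (0.15, adjusted p = 0.0732), with the GC content offset (0.10, adjusted p = 0.242) and with surrogate variables (0.09, adjusted p = 0.502).

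The remaining members of this role did not pass the test. *Ube2j2*, the other membrane-anchored E2, had a log2 fold change of 0.05 (95% interval −0.16 to 0.26). *Ube2g1* and *Ube2g2* both had 0.05 (intervals −0.10 to 0.20 and −0.15 to 0.25). *Ube2r2* leaned the other way, at 102, 140 and 164 CPM in A226Y and 133, 160 and 177 CPM in WT (−0.16, 95% interval −0.32 to 0.01, adjusted p = 0.192). Among their ligases and cofactors, *Syvn1* (0.05, adjusted p = 0.791), *March6* (0.08, adjusted p = 0.351) and *Aup1* (−0.07, adjusted p = 0.413) were not called. *Rnf5*, an ERAD ligase of the membrane, was called lower (−0.24, SE 0.068, adjusted p = 0.0219). It was not called with library size scaling (adjusted p = 0.0746), the length offset (adjusted p = 0.0908), the GC content offset (adjusted p = 0.0557) or surrogate variables (adjusted p = 0.127).

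The stretch just upstream of *Ube2j1* is shown with that of *Ube2l6* because these are the called members whose known inducers, the unfolded protein response and interferon, have short DNA elements that can be searched for. That of *Isg15*, a textbook interferon gene, is added for comparison. Each is the 250 bases before the RefSeq start on build GRCm38.p6, 5′ to 3′ on the gene's strand, with matches in capitals. They lie at chr4:33031130-33031379 (plus strand), chr2:84798578-84798827 (plus strand) and chr4:156200819-156201068 (minus strand).
Ube2j1: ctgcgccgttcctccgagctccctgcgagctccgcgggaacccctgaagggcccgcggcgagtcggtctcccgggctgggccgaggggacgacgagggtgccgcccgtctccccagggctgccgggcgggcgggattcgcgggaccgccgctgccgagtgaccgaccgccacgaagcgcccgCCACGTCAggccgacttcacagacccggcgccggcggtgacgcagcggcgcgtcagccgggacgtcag
Ube2l6: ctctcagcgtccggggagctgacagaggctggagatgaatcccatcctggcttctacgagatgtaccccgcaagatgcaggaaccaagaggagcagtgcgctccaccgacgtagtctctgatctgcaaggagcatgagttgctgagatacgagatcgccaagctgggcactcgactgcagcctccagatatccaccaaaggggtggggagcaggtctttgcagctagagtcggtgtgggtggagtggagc
Isg15: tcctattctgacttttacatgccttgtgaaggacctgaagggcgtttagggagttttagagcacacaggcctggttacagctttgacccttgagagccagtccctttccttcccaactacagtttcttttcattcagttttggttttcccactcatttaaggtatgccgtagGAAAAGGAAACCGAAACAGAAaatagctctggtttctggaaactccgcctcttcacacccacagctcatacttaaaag
The motifs searched on both strands were the unfolded protein response element TGACGTGG, the interferon element core GAAANNGAA and the gamma-activated site TTCNNNGAA. *Ube2j1* held 1 match to the first, on the minus strand, so that the printed strand reads CCACGTCA, starting 68 bases before the start. That element was present in 0.563% of 32851 windows of this length, and *Ube2j1* was the 1 member that held it of 30 with a window. The *Isg15* window held 3 overlapping matches to GAAANNGAA, starting 78, 72 and 66 bases before the start. The *Ube2l6* window held no match to any of the 3 motifs. The interferon core occurred in 7.13% of all windows and among members in *Ube2d3* and *Ube2dnl1*. The gamma-activated site occurred in 7.02% of all windows and among members in *Ube2d3*, *Ube2cbp* and *Ube2z*. These matches describe letters and not bound sites.

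Among the 5 E2s of cell cycle and DNA repair, *Ube2a* fell. Ube2a and Ube2b are Rad6 homologs with near-identical proteins that work with the ligases Rad18 and Rnf20/Rnf40. *Ube2a* (ENSMUSG00000016308) lies at chrX:36873900-36884222 on the plus strand. Its level was 21.3, 23.3 and 28.6 CPM in A226Y and 23, 29.2 and 31.3 CPM in WT. Of the 10 A226Y mice 9 were below the WT mean but only 4 below every WT mouse, since the lowest WT value, 23 CPM, was that of animal 33, well under the next at 27.4 CPM. Means were 24.2 ± 2.45 CPM (SD, n = 10) and 28.5 ± 2.56 CPM (SD, n = 8). The log2 fold change was −0.24 (SE 0.066, 95% interval −0.37 to −0.10, adjusted p = 0.0229), a change of −15.1%, with an exact permutation p of 0.00409. Without both libraries that stood apart it was −0.26 (adjusted p = 0.00875). The call was lost with library size scaling (−0.20, adjusted p = 0.0729), the transcript length offset (−0.18, adjusted p = 0.0906) and surrogate variables (−0.24, adjusted p = 0.136).

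*Ube2b*, the more abundant homolog, was not called and had a positive value (88.2, 111 and 126 CPM in A226Y, 85.0, 105 and 126 CPM in WT, log2 fold change 0.09, 95% interval −0.07 to 0.24, adjusted p = 0.475). *Rad18*, *Rnf20* and *Rnf40* were not called (0.26, 0.15 and −0.03, adjusted p = 0.473, 0.176 and 0.784). *Ube2c* and *Ube2s*, E2s of the anaphase-promoting complex, and *Ube2t*, of the Fanconi anemia pathway, were low. *Ube2s* was 1.46 to 2.47 CPM in A226Y and 0.897 to 2.03 CPM in WT (0.28, 95% interval −0.02 to 0.58, adjusted p = 0.204). *Ube2c* and *Ube2t* had medians of 0.564 and 0.291 CPM in A226Y and 0.589 and 0.312 CPM in WT, and their intervals (−0.59 to 0.95 and −0.60 to 0.68) reach far to both sides. Over all mice *Ube2c* had 469 counts, 134 of them in A226Y animal 23, and *Ube2t* had 191.

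**Figure D4:**
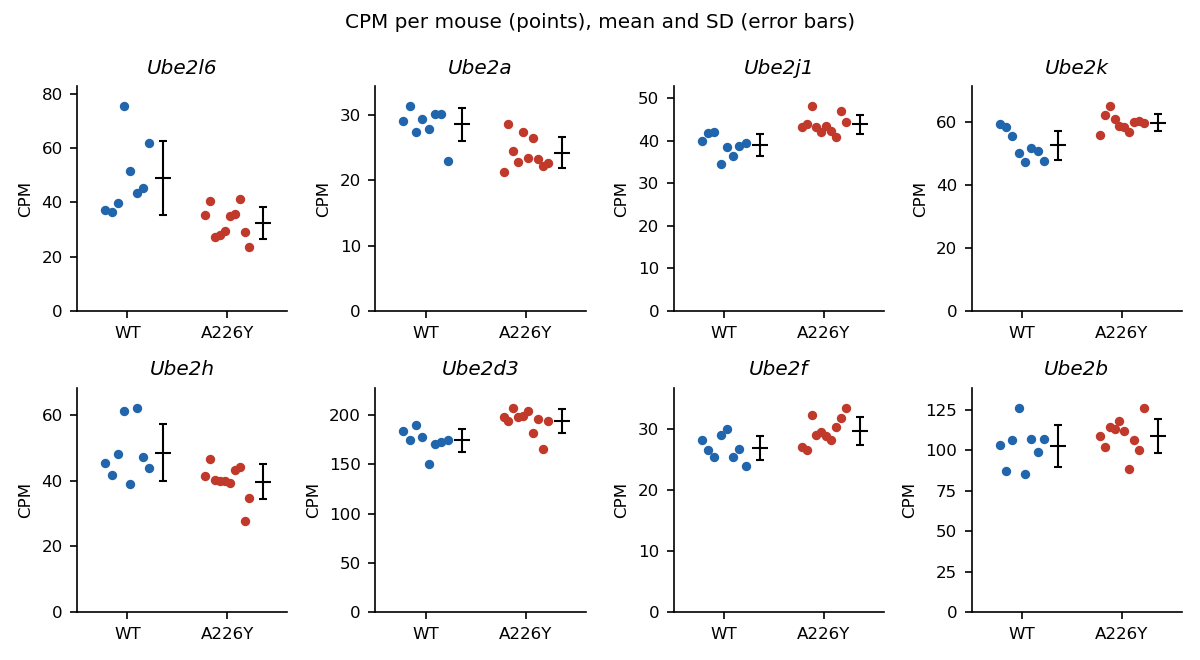
CPM per mouse (points, blue WT and red A226Y, spread sideways only to separate them) with mean and SD (black error bars) for the 4 called members, the 3 nearest to the threshold (*Ube2h*, *Ube2d3*, *Ube2f*) and *Ube2b*. Each axis starts at 0, and A226Y points sit lower for *Ube2l6* and *Ube2a* and higher for *Ube2j1* and *Ube2k*, with overlap in every panel.

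Members that are close relatives were compared within each mouse, which removes the scaling between libraries. The 6 pairs were chosen after the values were seen, and p-values of the exact permutation tests were adjusted over the 6. The log2 ratio of *Ube2a* to *Ube2b* averaged −2.16 in A226Y and −1.84 in WT, a difference of −0.33 (SE 0.11, p = 0.0116, adjusted p = 0.0348, exact permutation). The ratio of *Ube2l6* to *Ube2l3*, the E2 of RING-between-RING and HECT ligases, averaged −0.66 in A226Y and −0.23 in WT, a difference of −0.43 (SE 0.14, p = 0.00715, adjusted p = 0.0348, exact permutation). *Ube2l3* alone was not called (−0.13, 95% interval −0.30 to 0.03, adjusted p = 0.252), and 34.46% of its 50-base words occur in other genes, mainly the antisense neighbour *Ydjc*. The ratio of *Ube2j1* to *Ube2j2* differed by 0.12 (SE 0.11, adjusted p = 0.37), so a difference between these 2 was not detectable. The pairs *Ube2g1* and *Ube2g2*, *Ube2q1* and *Ube2q2*, and *Ube2v1* and *Ube2v2* differed by 0.01, −0.08 and −0.23 (adjusted p = 0.968, 0.37 and 0.254, exact permutation).

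Of the 8 broad-use E2s that place the first ubiquitin, 7 were tested and none was called. With 14.3% of all tested genes called, so small a group can hold none without differing from the rest. *Ube2d3* came nearest, at 165, 197 and 207 CPM in A226Y and 150, 175 and 190 CPM in WT. It was above every WT mouse in 8 of 10 A226Y mice, the log2 fold change being 0.15 (SE 0.056, adjusted p = 0.0729). It passed the threshold in DESeq2 (adjusted p = 0.0264), with library size scaling (adjusted p = 0.0204) and without the 2 libraries that stood apart (adjusted p = 0.0215), while the GC content offset gave 0.06 (adjusted p = 0.435). *Ube2e2* was 24.5, 36.6 and 42.6 CPM in A226Y and 29.8, 36 and 39.8 CPM in WT, with a log2 fold change of 0.03 (95% interval −0.17 to 0.22). *Ube2e1* had 0.04 (95% interval −0.10 to 0.18), and 59.01% of its 50-base words occur in other genes, mostly the antisense neighbour *Nkiras1*. *Ube2d1* (−0.06), *Ube2d2a* (0.13), *Ube2e3* (0.09) and *Ube2w* (0.05) had adjusted p-values of 0.594, 0.19, 0.266 and 0.679.

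None of the K63 group was called (14.3% of all tested genes were), which for so few genes says little about the group. *Ube2n* had a log2 fold change of −0.12 (95% interval −0.34 to 0.10) and its catalytically inactive partners *Ube2v1* and *Ube2v2* had −0.13 (−0.30 to 0.04) and 0.08 (−0.15 to 0.31). The count of *Ube2v1* is uncertain, since 82.37% of its 50-base words also occur in other genes, chiefly the read-through gene *Gm20431*. *Traf6*, a ligase that uses Ube2n to build K63 chains, rose, at 22.4, 26.8 and 29.9 CPM in A226Y and 17.1, 20.9 and 22.7 CPM in WT (0.37, SE 0.059, adjusted p = 0.0014), with 9 of 10 A226Y mice above every WT mouse. The *Traf6* call was lost with surrogate variables (0.30, adjusted p = 0.0728).

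Of the large, divergent or specialised members 7 of 11 were tested and none was called, where 14.3% of all tested genes were. *Ube2h*, an E2 abundant in red cell precursors that serves the CTLH ligase, was 27.7, 40.1 and 46.6 CPM in A226Y and 38.8, 46.2 and 62.0 CPM in WT. All 10 A226Y mice were below the WT mean, yet only 2 were below every WT mouse (−0.29, SE 0.099, adjusted p = 0.0556; DESeq2 adjusted p = 0.0439). The erythroid markers summed to 164, 253 and 427 CPM in A226Y and 209, 264 and 770 CPM in WT, and their part in *Ube2h* was not tested. Of the 50-base words of *Ube2h* 45.83% occur in other genes, mostly the antisense *Gm26526*. *Ube2u* was near 1 CPM (−0.30, 95% interval −0.81 to 0.21). *Ube2o*, *Ube2q1*, *Ube2q2*, *Ube2z* and the ligase *Ube2cbp* had log2 fold changes of −0.03, −0.03, 0.06, 0.02 and 0.09, with adjusted p-values from 0.598 to 0.892.

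The 5 members not tested were near or at 0. *Ube2d2b* had 97 counts in all 18 mice and at most 13 in one, which is 0.0922, 0.21 and 0.395 CPM in A226Y and 0.0303, 0.0901 and 0.183 CPM in WT. *Ube2ql1* had 68 counts and *Ube2d4* 20. *Ube2dnl1* and *Ube2dnl2* had no count in any mouse, which allows up to 0.0483 to 0.126 CPM per library (3 counts, counting error only). No fold change is given for these 5.

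The genes that work before and after the E2s were read from a list of 91, all of which were tested. There were 19 calls (20.9%, against 14.3% of all tested genes), 15 higher and 4 lower, with a median log2 fold change of 0.052. Scaling by library size alone gave 20 calls, 19 higher and 1 lower. None of the 4 ubiquitin genes, the 8 ubiquitin-like modifiers and the 3 E2 variants without a catalytic cysteine was called. The E1 of ubiquitin, *Uba1*, was 189, 205 and 230 CPM in A226Y and 172, 196 and 211 CPM in WT (0.10, adjusted p = 0.25). Of 10 E1 genes, *Uba3* rose and *Uba7* and *Atg7*, the E1-like enzyme of autophagy (−0.24, adjusted p = 0.0335), fell. *Atg7* was called in 12 of 18 fits that left out 1 mouse (adjusted p up to 0.0745). It was not called with library size scaling (adjusted p = 0.0655), the GC content offset (adjusted p = 0.0837) or surrogate variables (adjusted p = 0.589). Of 5 E2s with other symbols, *Birc6*, a giant E2 and ligase that blocks cell death, had 0.28 (SE 0.065, adjusted p = 0.00879), with 8 of 10 A226Y mice above every WT mouse, and lost its call with the transcript length offset (0.10, adjusted p = 0.145). *Cdc34*, the relative of *Ube2r2*, had 0.05 (adjusted p = 0.766).

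Ligases and cofactors accounted for 15 of the 19 calls, 13 higher and 2 lower among 61 genes (24.6% called, against 14.3% of all tested genes, of which 7.27% higher and 7.03% lower). After *Traf6*, *Ube3a*, the founding HECT ligase, rose from a WT median of 35.3 CPM to 44.9 CPM (0.33, SE 0.064, adjusted p = 0.00312). *Xiap*, an inhibitor of caspases, rose by 0.27 (SE 0.056, adjusted p = 0.00504), and *Mdm2*, the ligase of p53, by 0.25 (SE 0.063, adjusted p = 0.0132). In each of these 3, as in *Traf6*, 9 of 10 A226Y mice were above every WT mouse. *Arih2*, which works with neddylated Cul5, rose by 0.23 (adjusted p = 0.0207). *Ubr1*, of the N-degron pathway, was called at 0.20 (adjusted p = 0.0126) but not with the length offset (0.08, adjusted p = 0.185). *Cul5* was called at 0.18 (adjusted p = 0.0134) but not with the length offset (0.11, adjusted p = 0.112) or the GC content offset (0.09, adjusted p = 0.16). *Rnf31*, the catalytic subunit of the linear chain complex, fell (−0.24, SE 0.057, adjusted p = 0.0106), with 8 of 10 A226Y mice below every WT mouse, and was not called with library size scaling (−0.19, adjusted p = 0.0607). The number called over the list was 12 with the transcript length offset and 1 with surrogate variables, which was none of the genes named above.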

How the data were processed

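Liver RNA was sequenced as single-end reads of 50 bases. The authors deposited raw counts of reads per Ensembl gene for each mouse, without normalization. The submitters' processing notes name bcl2fastq, fastp, STAR, featureCounts, MultiQC and GRCm38, whereas the study's methods name RSEM and another build, so the counting step and its use of strand are uncertain. Of the 22524 identifiers 22291 were matched to a symbol in GENCODE M21 (GRCm38). Reads shared with antisense or near-identical genes may be lost or misplaced.

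Genes that reached 10 counts in 50% or more of either genotype's mice (13353) were tested with edgeR 4.0.16 in R 4.3.3, using TMM scaling, the quasi-likelihood test without covariates and Benjamini-Hochberg adjustment. A standard error is the log2 fold change over the square root of F. CPM are deposited counts divided by the TMM-scaled library size. Depth leaves counting error small for all but the lowest members, and precision is set by differences between mice (common biological coefficient of variation 0.194). Counts of no 2 mice of 1 genotype agreed within sampling noise (lowest chi-square per degree of freedom 20.1 over 73 pairs). Level per length divides CPM by the longest basic transcript.

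Members and lists were chosen with earlier results of these data known. Called members, the 6 most abundant members not called, those not tested, and called pathway genes (at most 12, by adjusted p) were named by rule, and other names were added after values were seen. Alternatives were RLE factors, library size alone, no filter beyond 1 count, filterByExpr, DESeq2 1.42.0, limma-voom 3.58.1, 4 surrogate variables (sva 3.50.0), lowess offsets on transcript length or GC content, and leaving out each mouse. Leaving out the 2 libraries that stood apart was chosen after seeing the data. Procedures were run on simulated counts with a log2 change of 1, larger than that of any called member. These runs do not show how well smaller changes are called. With a length bias added to the simulated A226Y libraries, the main test made 4731 false calls among 13353 genes, and 8 with the length offset. A few genes, 1 member among them, are counted but not reported singly.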

Additional observations from a re-analysis of the deposited data

Results flagged for a closer look

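Of 92 groups of 8 or 10 values examined for single mice far from the rest, 9 held one, where chance gives about 1 in 20. Among the members, *Ube2c* was 2.18 CPM in A226Y animal 23 (nearest mouse 1.06 CPM) and 1.75 CPM in WT animal 33 (nearest 0.77 CPM), and its log2 fold change ran from −0.19 to 0.54 when single mice were left out. *Ube2a* was 23 CPM in WT animal 33 (nearest 27.4 CPM). *Ube2n* was 15.7 CPM in WT animal 14 (nearest 11.6 CPM). *Ube2g1* was low and *Ube2o* high in A226Y animal 29, at 56.7 CPM (nearest 75.5 CPM) and 19.9 CPM (nearest 12.6 CPM). Among the pathway genes, *Traf6* was 17.1 CPM in WT animal 14 (nearest 20.1 CPM). In A226Y animal 29, *Xiap* was 80.1 CPM (nearest 93.1 CPM) and *Uba7* 12.7 CPM (nearest 6.78 CPM). A226Y animal 29 accounted for 4 of the 9 and WT animals 14 and 33 for 2 each. The libraries of animals 29 and 33 also stood apart over all genes, and that of animal 14 did not.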

How the results depend on the processing

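No paired analysis was possible because the genotypes share no animal numbers. The fold changes of members over the 10 alternatives that leave out no single mouse gave 330 values, of which 293 kept direction and side of the threshold, 9 lost the call, 4 gained it and 24 changed sign, all in members not called; the cause was not tested. With 4 surrogate variables edgeR called 50 genes, 1 pathway gene and 0 members (1989 genes and 4 members at an unadjusted p under 0.05), whereas DESeq2 without them called 2418 genes and 6 members. With the transcript length offset 2 members and 12 pathway genes were called, and with the GC content offset 2 members. Leaving out single mice gave 1255 (without WT animal 14) to 2560 genes, 4 to 5 members and 15 to 25 pathway genes, and −0.77 to −0.68 for *Rps2*. Called members then ranged from −0.64 to −0.47 (*Ube2l6*), −0.28 to −0.22 (*Ube2a*), 0.15 to 0.19 (*Ube2j1*) and 0.16 to 0.21 (*Ube2k*), the last not called without WT animal 21. Sign changes with surrogate variables were *Ube2t* −0.36, *Ube2v1* 0.02, *Ube2q1* 0.04, *Ube2j2* −0.03, *Ube2s* −0.02, *Ube2m* −0.09, *Ube2d1* 0.11, *Ube2g2* −0.06, *Ube2n* 0.06 and *Ube2l3* 0.04. With the GC content offset they were *Ube2w* −0.04, *Ube2q1* 0.00, *Ube2e1* −0.01, *Ube2g1* −0.04, *Ube2o* 0.02 and *Ube2v2* −0.03, with the length offset *Ube2d1* 0.00, with library size alone *Ube2q1* 0.01 and *Ube2o* 0.02, and with limma-voom *Ube2t* −0.03. Without both libraries that stood apart they were *Ube2j2* −0.01, *Ube2m* −0.03, *Ube2g2* −0.03 and *Ube2z* −0.01. Single mice turned *Ube2t* (−0.09 to 0.17), *Ube2c* (−0.19 to 0.54), *Ube2j2* (0.00 to 0.11), *Ube2m* (−0.01 to 0.06), *Ube2g2* (−0.02 to 0.09), *Ube2e2* (−0.01 to 0.08), *Ube2z* (0.00 to 0.03) and *Ube2o* (−0.14 to 0.04). Depth limits the members that were not tested.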
